A study of Mus musculus with 2 samples.

Results

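The intercalated disc adhesion and gap junction genes described here are 10 genes chosen by symbol from 27999 features: Gja1, Gja5, Gjc1, Cdh2, Ctnna3, Jup, Dsp, Pkp2, Dsg2 and Dsc2. They were followed across atrial-type and ventricular cardiomyocytes, across 9 other marker-defined classes of heart cells, and across ventricular cells with and without a GFP transcript. The counts come from 2 droplet RNA libraries of mouse right ventricle (strain C57/BL6J), harvested on postnatal day 21. Both libraries belong to 1 group, p300/CBP knockout, whose label names AAV9 injected on postnatal day 1. All animals carried CBP flox/flox together with p300 flox/flox and with Trap flox/flox, a name written with a lower-case t for library 2. There was no control sample, so nothing below compares knockout with control tissue. The labels give neither the cargo of the virus, the promoter that drove it, the number of animals behind a library, nor what GFP marks. The p-values therefore measure how differences between cell classes vary between these 2 libraries, which may in part be technical.

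The intercalated disc is the end-to-end contact between heart muscle cells. Connexins, the products of the Gja and Gjc genes, assemble into gap junction channels that pass current from cell to cell. Gja1 encodes Cx43 of working myocardium, Gja5 encodes Cx40 of atrial muscle, the conduction system and arterial endothelium, and Gjc1 encodes Cx45 of conduction tissue and vascular muscle. Cdh2 encodes N-cadherin, which holds adjoining cells together and is tied to actin through catenins such as the alpha-T-catenin encoded by Ctnna3. Desmosomes tie the cells together through the cadherins Dsg2 and Dsc2, which plakoglobin (Jup) and plakophilin-2 (Pkp2) link to desmoplakin (Dsp) and so to the intermediate filaments. Variants of the desmosomal genes are a known cause of arrhythmogenic cardiomyopathy in people.

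Of the 10 genes, all were found in the GENCODE annotation of GRCm38. Gja1 lies on chromosome 10 (56377330 to 56402513, forward strand), Ctnna3 on the same chromosome (63430098 to 65003667, forward), and Gja5 on chromosome 3 (96904693 to 97077416, forward). Jup (100368958 to 100397763, reverse) and Gjc1 (102799579 to 102819700, reverse) share chromosome 11. Dsp lies on chromosome 13 (38151294 to 38198577, forward) and Pkp2 on chromosome 16 (16213318 to 16272712, forward). The 3 cadherins are on chromosome 18, Cdh2 at 16588877 to 16809246 (reverse), Dsc2 at 20030633 to 20059554 (reverse) and Dsg2 at 20558074 to 20604521 (forward). The counts are per gene, so they carry no position within a gene. The sources used here do not say whether reads in introns were included, so levels were compared within a gene and never between genes.

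The libraries held 12736 and 9447 barcodes with 57982200 and 50199793 UMIs (unique molecular identifiers, each marking 1 captured transcript). They shared 17 barcode sequences. After filtering, 11258 cells of library 1 and 8353 of library 2 were clustered without the genes described here and named from marker genes. Ventricular cardiomyocytes numbered 6947 and 2208, and atrial-type cardiomyocytes 70 and 6. The protocol in the labels enriches CD45+ cells, yet macrophages numbered only 253 and 369. The ventricular class went with its label, with Myl2 at 1064 and 853 CPM (UMIs of the gene scaled to a common class total), and the atrial chamber genes Nppa at 31.7 and 1.86 CPM and Sln at 4.38 and 0.0532 CPM. The atrial-type class had Nppa at 19716 and 6488 CPM and Sln at 2347 and 454 CPM, and no UMI of the ventricular factors Irx4 and Hey2. It did hold Myl2 at 452 and 64.9 CPM, and Myh7 at 621 and 260 CPM against 756 and 445 CPM in ventricular cells. The 7 genes of the ventricular list, which held the atrial gene Kcnj3 in error, summed to 7403 and 5839 CPM in atrial-type cells. In ventricular cells they summed to 3839 and 2942 CPM. Of the defining conduction markers the atrial-type class had Hcn4 at 5.54 and 0 CPM and Cntn2 at 22.2 and 0 CPM. The 9 conduction markers summed to 621 and 876 CPM in atrial-type cells, against 83.0 and 57.8 CPM in ventricular cells, and no cluster scored highest for them.

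Every other class also held some cardiomyocyte transcripts. The summed level of 12 cardiomyocyte markers, in percent of the ventricular level, ranged from 12.7% to 24.9% over the 9 other classes of library 1 and from 2.42% to 8.43% over those of library 2. These percentages are given beside each member below, and their part in the members' levels was not tested.

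In ventricular cardiomyocytes every member except Gja5 was well covered. Gja1, from 15996 and 8991 UMIs, stood at 422 CPM in library 1 and at 478 CPM in library 2. Gjc1 stood at 54.1 and 48.8 CPM. Gja5 stood at 1.61 and 1.49 CPM, from 61 and 28 UMIs. The libraries gave like levels of each connexin, and the Gja5 values rest on few UMIs.

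Among the adherens junction genes, Cdh2 had 2169 and 2086 CPM in ventricular cells and Ctnna3 had 6369 and 7633 CPM. Among the desmosomal genes, Dsp had 245 and 215 CPM, Pkp2 had 551 and 531 CPM, Dsg2 had 255 and 188 CPM, and Dsc2 had 113 and 90.5 CPM. Jup, which serves both junctions, had 69.9 and 44.7 CPM. Library 1 gave the higher value for 7 of the 9 members other than Gja5, and Gja1 and Ctnna3 were higher in library 2.

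To compare cells at 1 depth, each cell was thinned to 1000 UMIs and shallower cells were left out (15 and 1 ventricular cells). A Gja1 UMI was then present in 33.1% of ventricular cells of library 1 (95% Clopper-Pearson interval 32.0 to 34.2) and 33.9% of library 2 (32.0 to 36.0). Without thinning these shares were 77.6% and 84.1%, and the median cell then had 4632 and 7384.5 UMIs. In macrophages, which lack the disc, the thinned share was 11.2% (7.42 to 15.9) and 1.94% (0.785 to 3.97), and the median macrophage had 1552 and 2711 UMIs before thinning. All intervals and floors here cover counting error only.

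The same thinning found Cdh2 in 83.3% and 79.2% of ventricular cells, against 36.5% and 10.0% of macrophages. Ctnna3 was found in 99.2% and 99.6% of ventricular cells, against 59.7% and 26.4% of macrophages. A thinned ventricular cell held a UMI of a median of 3 of the 10 members in both libraries. A single cell at this depth therefore shows only part of the set, and the comparisons below use summed counts.

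The ventricular class joined 3 clusters that the libraries filled unequally. Clusters 0 and 1 held 3645 and 3073 cells of library 1, and cluster 2 held 2017 cells of library 2. In library 1 the 9 members other than Gja5 lay between 78.9% and 132% of the class level in each of these clusters. Gja1 was at 429, 421 and 375 CPM in clusters 0, 1 and 2 of library 1, and at 493, 441 and 479 CPM in those of library 2. Differences among the clusters were not tested, since the clusters were defined on these cells.

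**Figure D1:**
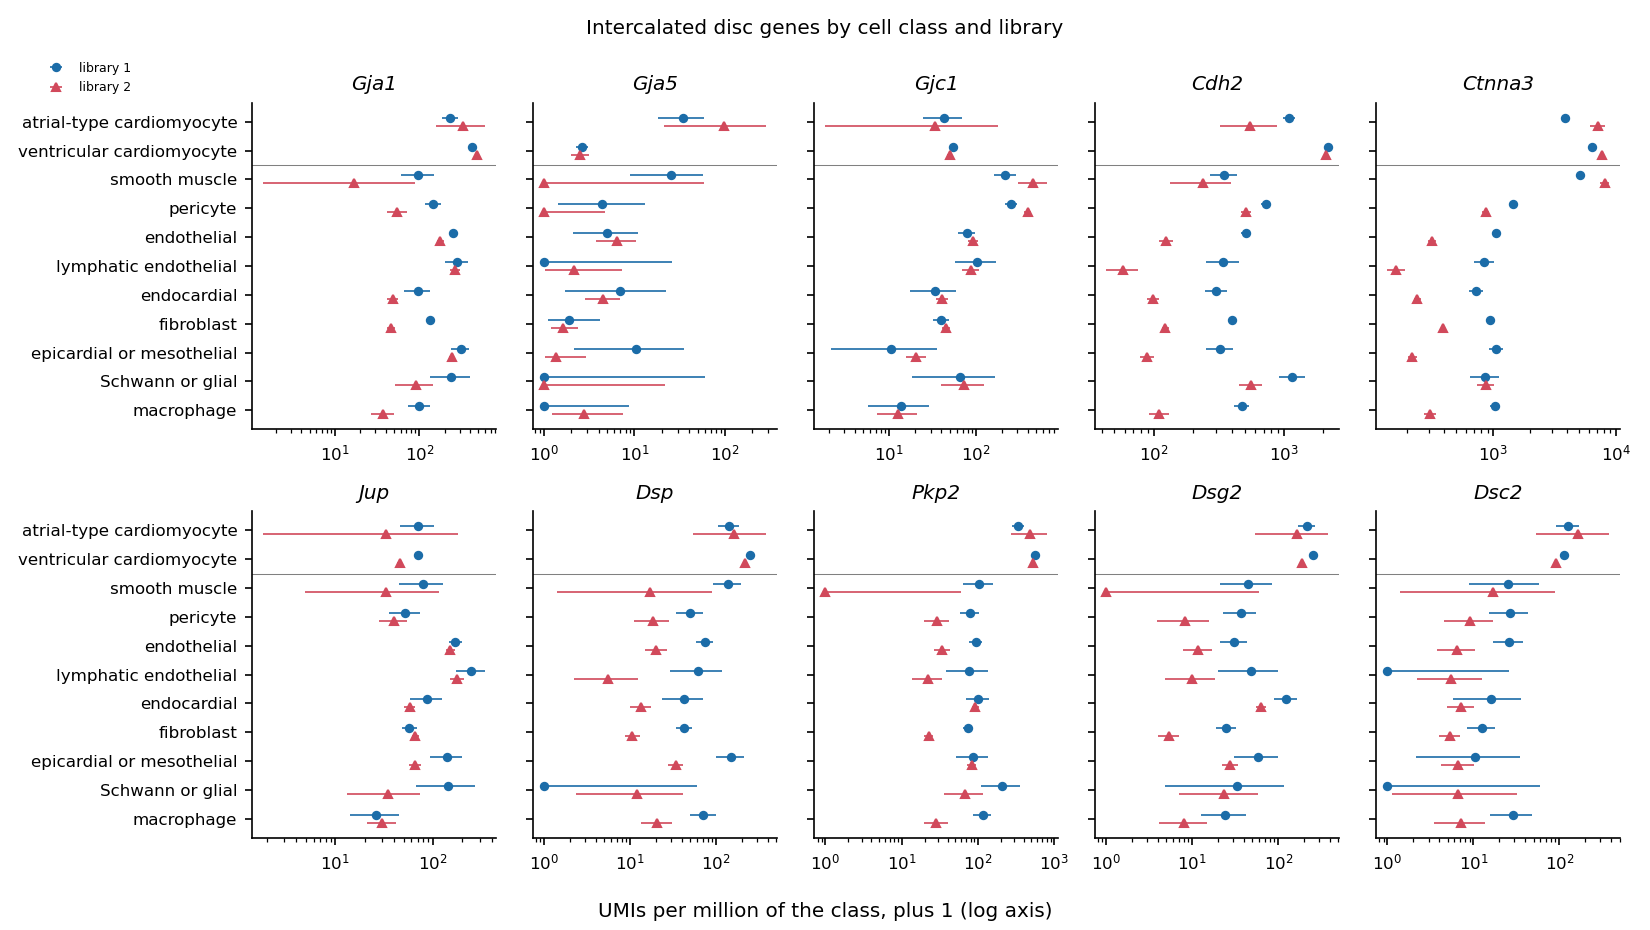
Level of each of the 10 genes (CPM plus 1, log axis) in 11 cell classes, atrial-type cardiomyocytes at the top, ventricular below them and the other classes under the line. Circles are library 1 and triangles library 2, with 95% Poisson intervals. Most members peak above the line, whereas Gjc1 is highest in smooth muscle cells and pericytes, and Jup in lymphatic endothelial and endothelial cells.

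The first comparison asked which members mark cardiomyocytes. It set ventricular cells against the mean, taken on the log2 scale, of the 5 other classes large enough for the fit. These were fibroblasts, endothelial cells, endocardial cells, pericytes and macrophages. All 9 members tested were higher in ventricular cells at an adjusted p under 0.05, but so were 32.2% of the 13267 genes tested, and 34.2% were lower. The median log2 difference was 3.59 over the members tested and -0.07 over all genes. Gja5 did not pass the filter on low counts and was not tested. For 7 members the difference was large, and for Gjc1 and Jup it was small and not stable.

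The channel gene Gja1 had 422 and 478 CPM in ventricular cells. In the other 5 classes it ranged from 94.8 to 253 CPM in library 1 and from 36.3 to 176 CPM in library 2, below the ventricular value in each library. Its log2 difference was 2.87 (SE 0.22, edgeR adjusted p = 7.9e-08). Library 1 alone gave 2.12 and library 2 alone gave 3.46, and library 1 is the library with more cardiomyocyte transcripts in its other classes.

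The adherens genes moved together with it. Cdh2 was higher by 3.57 (SE 0.26, adjusted p = 5.0e-08) and Ctnna3 by 4.11 (SE 0.24, adjusted p = 9.3e-09). The desmosomal genes gave like sizes, with Dsp at 3.59 (SE 0.23), Pkp2 at 3.75 (SE 0.24), Dsg2 at 3.91 (SE 0.22) and Dsc2 at 3.71 (SE 0.21), all with adjusted p under 0.05 in edgeR. For these 6 genes the values were 2.68 to 3.25 in library 1 alone and 4.23 to 4.79 in library 2 alone. How far the transcripts in other classes set these sizes was not tested.

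Gjc1 and Jup behaved differently from the other 7. Gjc1 was higher in ventricular cells by 0.40 (SE 0.14, adjusted p = 0.024) and Jup by 0.37 (SE 0.15, adjusted p = 0.044). On library totals alone, without TMM scaling, they were lower in ventricular cells, at -0.075 and -0.11, and neither passed (adjusted p = 0.67 and 0.55). That change of scale moved the median of all genes to -0.54 as well. Both calls were also lost in DESeq2 (adjusted p = 0.087 and 0.13), without the library block (0.13 and 0.094) and with smaller classes added (0.24 and 0.77). With marked doublets kept, Jup came to 0.02 (adjusted p = 0.95). Relative to the median gene, Gjc1 was 0.46 higher under either scale and Jup 0.43 higher.

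Wider lists of junction and disc genes gave the following picture in the same fit. Of 22 other disc residents, 21 were tested, 19 were higher and 1 lower, with a median of 2.93. Xirp2, an actin-binding protein of the disc, was higher by 4.47 (SE 0.28) and Popdc3 by 4.30 (SE 0.29).

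Of 16 cadherin and catenin partners, 13 were tested, 8 were higher and 3 lower (median 1.36). Sorbs2 (3.57, SE 0.28), Lmo7 (3.39, SE 0.24) and Cdh13 (2.86, SE 0.25) led the higher ones. Ctnna2 (-1.60, SE 0.60), Cdh4 (-1.47, SE 0.42) and beta-catenin, Ctnnb1 (-0.62, SE 0.12), were lower. Of 16 other desmosome-related genes, 7 were tested, 3 were higher and 3 lower (median 0.22). Des, the muscle intermediate filament, was higher by 2.03 (SE 0.20), Perp by 0.95 (SE 0.23) and Plec by 0.45 (SE 0.14), whereas Evpl (-2.23, SE 0.70), Ppl (-1.75, SE 0.45) and Tmem43 (-1.45, SE 0.18) were lower.

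Only 3 of 20 other connexins and pannexins were tested. Gja3 was higher in ventricular cells by 4.56 (SE 0.27), at 52.3 and 57.2 CPM there, and Gja4 (-3.55, SE 0.47) and Panx1 (-2.89, SE 0.37) were lower. Of 10 endothelial junction genes, none was higher and 6 were lower (median -1.70), led by Pecam1 (-3.83, SE 0.27), Esam (-3.82, SE 0.17) and Gja4, which stands in both lists. Pecam1 is also an endothelial marker used to name cells, so its call is no independent support. Of 18 conduction system genes, 11 were tested, 7 were higher and 4 lower (median 1.79). Tbx5 (3.72, SE 0.16), Nkx2-5 (3.47, SE 1.01) and Cacna1g (3.14, SE 0.23) were higher, and Tbx18 (-3.08, SE 0.36), Id2 (-3.02, SE 0.26) and Tbx3 (-2.41, SE 0.38) were lower. All genes named in these lists passed an adjusted p of 0.05 over all genes.

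The second comparison asked which other heart cells carry the members. Each of the 5 other classes was set against the mean, again on the log2 scale, of the other 4, so that the cardiomyocyte level did not enter. Of 45 gene-by-class pairs tested, 8 were higher and 5 lower at an adjusted p under 0.05. For single classes, between 11.7% and 20.8% of all genes were higher and between 9.05% and 16.7% lower. The clearest were Gjc1 in pericytes, Dsg2 in endocardial cells and Jup in endothelial cells.

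Pericytes, the mural cells of capillaries, had the highest Gjc1 of the fitted classes. Gjc1 stood at 255 and 393 CPM in pericytes (151 and 387 UMIs), against 12.7 to 77.7 CPM in the other 4 classes of library 1 and 11.5 to 92.3 CPM in those of library 2. The groups did not overlap in either library. The log2 difference was 3.20 (SE 0.14, edgeR adjusted p = 2.4e-09), where 11.7% of all genes were higher. The level was 471% and 806% of the ventricular level, while the cardiomyocyte markers were at 16.4% and 4.19%. At 1000 UMIs, 22.1% and 28.1% of pericytes held a Gjc1 UMI, against 0.858% and 1.39% of macrophages.

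The adherens genes were also higher in pericytes. Cdh2 stood at 729 and 509 CPM, against 302 to 512 and 98.0 to 124 CPM in the other 4 classes (log2 difference 1.52, SE 0.30, adjusted p = 0.0019). It was at 33.6% and 24.4% of the ventricular level. Ctnna3 stood at 1438 and 868 CPM, against 726 to 1051 and 240 to 390 CPM (1.06, SE 0.28, adjusted p = 0.014). Without the library block neither passed (adjusted p = 0.16 and 0.29). With smooth muscle and other small classes added, Ctnna3 in pericytes came to 0.65 (adjusted p = 0.23).

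Smooth muscle cells (54 and 21 cells) were too few for the fit but stood out for the same genes. Gjc1 was at 218 and 460 CPM there. Ctnna3 was at 5077 and 8075 CPM, which is 79.7% and 106% of the ventricular level, with cardiomyocyte markers at 19.9% and 5.22%. Cdh2 did not follow, at 15.8% and 11.4%. Of the 9 other classes, only smooth muscle had Ctnna3 at a level whose counting interval lay over 2 times the marker percentage in both libraries.

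Endothelial cells were higher in 3 members. Jup stood at 168 and 150 CPM in endothelial cells (171 and 336 UMIs), against 25.4 to 85.9 CPM in the other 4 classes of library 1 and 29.2 to 64.8 CPM in those of library 2. The difference was 1.79 (SE 0.16, adjusted p = 1.4e-06), where 16.3% of all genes were higher. Gja1 stood at 253 and 176 CPM, against 94.8 to 143 and 36.3 to 53.8 CPM (1.60, SE 0.26, adjusted p = 0.00032). Gjc1 was at 77.7 and 92.3 CPM (0.85, SE 0.16, adjusted p = 0.0015). Gja1 was the one of these lost when marked doublets were kept (0.43, adjusted p = 0.19).

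Lymphatic endothelial cells, with 45 and 178 cells, had the highest Jup of all classes at 245 and 175 CPM. Their Gja1 was at 279 and 263 CPM, 66.0% and 55.1% of the ventricular level, with cardiomyocyte markers at 13.4% and 2.42%. Epicardial or mesothelial cells (46 and 530 cells) were alike in Gja1, at 307 and 240 CPM. They also had Dsp at 146 and 32.8 CPM, or 59.7% and 15.3% of the ventricular level, beside markers at 17.4% and 3.01%. Cdh2 was at 1161 and 558 CPM in Schwann or glial cells (32 and 48 cells), or 53.5% and 26.7% of the ventricular level, beside markers at 24.9% and 8.43%. These classes entered no test.

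Endocardial cells, which line the chambers, were set apart by Dsg2. It stood at 121 and 62.1 CPM (41 and 232 UMIs), against 23.3 to 35.4 and 4.32 to 10.7 CPM in the other 4 classes. The difference was 2.63 (SE 0.31, adjusted p = 3.0e-05), where 13.6% of all genes were higher. Dsg2 was at 47.7% and 33.0% of the ventricular level, with cardiomyocyte markers at 12.7% and 2.94%, whereas its partner Dsc2 was at 13.1% and 6.80%.

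Pkp2 was at 101 and 91.6 CPM in endocardial cells (1.12, SE 0.33, adjusted p = 0.025). Its ranges in the other 4 classes, 73.9 to 114 and 21.7 to 33.0 CPM, overlapped the endocardial value in library 1, where the difference was 0.15, against 1.76 in library 2. The call was lost in DESeq2 (adjusted p = 0.053), without the library block (0.42) and with doublets kept (0.11). Gjc1 was lower in endocardial cells (-0.70, SE 0.20, adjusted p = 0.022), at 32.6 and 39.9 CPM.

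Macrophages were low in Gjc1 at 12.7 and 11.5 CPM (-2.82, SE 0.27, adjusted p = 1.6e-06) and in Jup at 25.4 and 29.2 CPM (-1.38, SE 0.24, adjusted p = 0.00044). Fibroblasts were low in Dsg2 at 23.9 and 4.32 CPM (-1.25, SE 0.36, adjusted p = 0.018) and in Gjc1 at 38.5 and 44.5 CPM (-0.53, SE 0.17, adjusted p = 0.029). Lower calls made up 16.7% of all genes in macrophages and 14% in fibroblasts. Without the library block, Gjc1 (0.098) and Dsg2 (0.34) in fibroblasts and Gjc1 in endocardial cells (0.083) no longer passed.

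In the wider lists of the same fit, Gja4, another vascular connexin, was higher in pericytes by 3.37 (SE 0.29) and in endocardial cells by 3.03 (SE 0.28). It was lower in endothelial cells (-1.54, SE 0.47), fibroblasts (-1.75, SE 0.42) and macrophages (-3.11, SE 0.62). Of the 10 endothelial junction genes, 8 were higher and 1 lower in endothelial cells and likewise in endocardial cells, 3 were higher and 3 lower in pericytes, 1 higher and 6 lower in fibroblasts, and 0 higher and 7 lower in macrophages. Pecam1 and Cdh5 of this list are also endothelial markers used to name cells, so their calls are no independent support. Of the 7 desmosome-related genes tested, 4 were higher in endocardial cells, led by Ppl (3.58, SE 0.31), Pkp4 (2.19, SE 0.15) and Perp (1.80, SE 0.30).

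**Figure D2:**
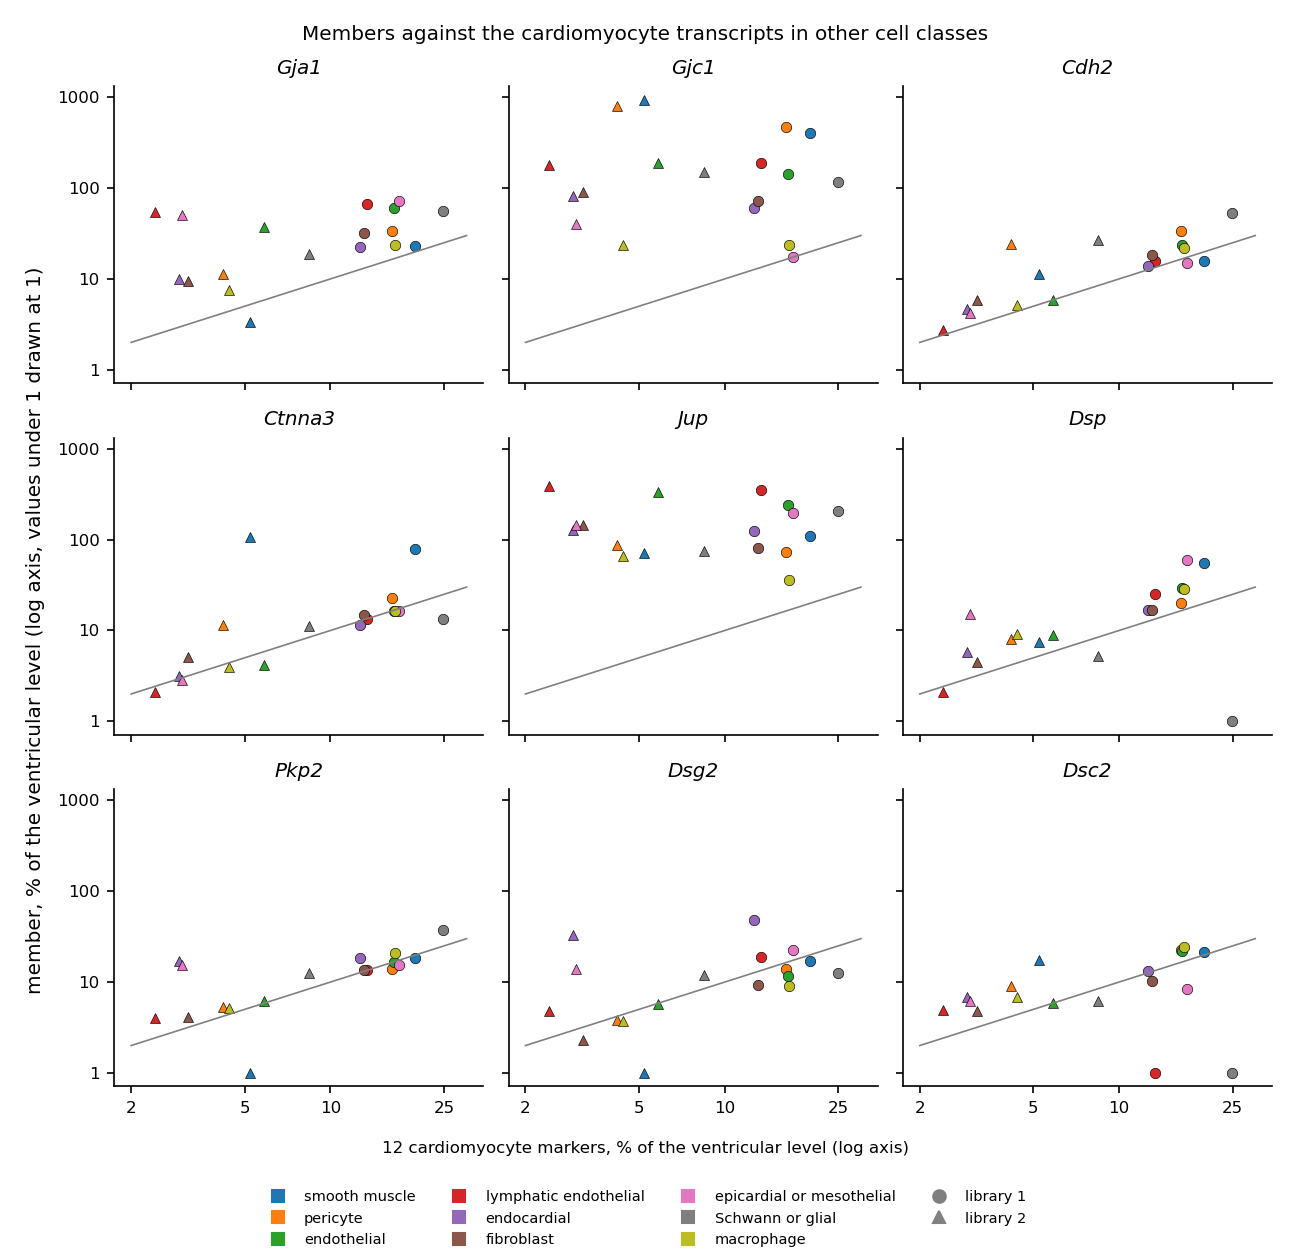
Level of 9 members in each of the 9 other classes, in percent of the ventricular level of the same library (vertical, log axis), against the percent for the sum of 12 cardiomyocyte markers (horizontal, log axis). Circles are library 1, triangles library 2, colours are classes, and the grey line marks equal percentages. Most points of Cdh2, Dsp, Pkp2, Dsg2 and Dsc2 run along the line, endocardial Dsg2 (47.7% and 33.0%) and smooth muscle Ctnna3 (79.7% and 106%) stand above it, and all points of Jup do.

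The third comparison set atrial-type against ventricular cardiomyocytes. Gja5 was higher in atrial-type cells, and Gja1, Cdh2, Dsp and Pkp2 were lower. These calls, 1 higher and 4 lower of 10 members tested, stand beside 11.2% of 12355 genes higher and 13.4% lower. The atrial-type class had only 70 and 6 cells with 360930 and 30825 UMIs, below the number set for entry to the fit, and its entry was decided after the data were seen. The median log2 difference was -1.06 over the members and -0.30 over all genes, so each value is also given relative to that median. The fit held these classes and the 5 others, with a single shared library effect. The difference between libraries in those 5 classes thus also enters the fitted sizes. For Gja1, Dsp and Pkp2 the fitted drop is larger than the CPM of either library gives, also relative to the median gene. How far the shared effect set these sizes was not tested.

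Gja5 had 33.2 and 97.3 CPM in atrial-type cells, from 12 and 3 UMIs, against 1.61 and 1.49 CPM in ventricular cells. The 95% Poisson intervals of the classes did not overlap in either library. The log2 difference was 4.25 (SE 0.65, edgeR adjusted p = 0.00014), or 4.55 above the median gene. It passed under every alternative run, with adjusted p from 7.4e-12 to 0.016. With the low-count filter on, Gja5 entered this fit only through the atrial-type sums, the group in which it is high. In the first comparison, which lacks those sums, it did not pass that filter, so its p-values are no independent support.

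Endothelial transcripts moved with this result. Pecam1 was at 69.3 and 162 CPM in atrial-type cells, against 5.38 and 10.3 CPM in ventricular cells and 1070.5 and 1237 CPM in endothelial cells. A Pecam1 or Cdh5 UMI was found in 20 of 70 and 1 of 6 atrial-type cells, and in 4 of the 7 and 1 of the 2 that held a Gja5 UMI. All 7 and both held an Nppa UMI. Leaving such cells out of both cardiomyocyte classes kept Gja5 at 20.3 and 79.3 CPM in atrial-type cells, from 4 and 2 UMIs, with a difference of 3.89 (edgeR adjusted p = 0.016). That run kept the same low-count filter, so this p-value is no independent support either. A cell without a Pecam1 or Cdh5 UMI may still hold endothelial transcripts. Gja5 in the endothelial class itself was at 3.94 and 5.35 CPM. It was at 643 and 308 CPM in cluster 19, an unnamed cluster of 14 and 53 cells whose best-scoring marker list was the endothelial one, with Pecam1 at 3336 and 4444 CPM. The part of such cells' transcripts in atrial-type Gja5 was not tested beyond leaving out the Pecam1 or Cdh5 cells.

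Gja1 went the other way. It had 233 and 324 CPM in atrial-type cells (84 and 10 UMIs), against 422 and 478 CPM in ventricular cells. The atrial-type values were the lower ones in both libraries, and in library 2 the interval of the atrial-type value (156 to 597) reached over the ventricular one. The difference was -1.62 (SE 0.39, adjusted p = 0.0058), or -1.33 relative to the median gene, and -1.33 and -1.31 relative to it under the other 2 scales. It was lost on library totals alone (adjusted p = 0.070), without the library block (0.13) and with doublets kept (0.053).

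For sequence context of these 2 connexins, which moved in opposite directions, the 250 bases before a RefSeq transcription start on GRCm38.p6 are shown, both on the forward strand. Capitals mark a match to the GATA-type motif AGATAA or its reverse complement.
Gja1, chr10:56377050-56377299: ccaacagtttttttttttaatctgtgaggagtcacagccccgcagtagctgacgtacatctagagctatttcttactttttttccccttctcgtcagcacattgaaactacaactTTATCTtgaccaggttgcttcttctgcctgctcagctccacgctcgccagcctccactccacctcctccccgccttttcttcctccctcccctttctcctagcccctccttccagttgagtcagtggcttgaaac
Gja5, chr3:97032152-97032401: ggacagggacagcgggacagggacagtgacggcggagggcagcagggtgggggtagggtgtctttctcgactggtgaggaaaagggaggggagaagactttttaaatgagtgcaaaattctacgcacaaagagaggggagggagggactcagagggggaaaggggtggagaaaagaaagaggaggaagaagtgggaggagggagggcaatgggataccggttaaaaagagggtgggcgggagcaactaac
The Gja1 window held 1 match, TTATCT at position -135 relative to the start, and the Gja5 window held none. AGATAA is found, on either strand, in 9.99% of 32851 such windows. Searches on both strands for GGTGTG (T-box type, in 16.3% of windows) and CACTTAA (NKX2-5 type, in 2.10%) matched neither window. A match is only a run of letters, and no match says nothing about the factor. RefSeq windows were found for 5 of the 10 members.

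Of the adherens genes, Cdh2 had 1094 and 552 CPM in atrial-type cells, against 2169 and 2086 CPM in ventricular cells, with no overlap between the classes. The difference was -2.16 (SE 0.42, adjusted p = 0.0014), or -1.86 relative to the median gene. It held under every alternative except the fit without the library block (-1.80, adjusted p = 0.14). Library 1 alone gave -1.30 and library 2 alone, with its 6 atrial-type cells, gave -2.95. The median of all genes was itself at -0.22 in library 1 alone and at -1.57 in library 2 alone. Ctnna3 did not pass (-1.15, adjusted p = 0.058, or -0.86 relative to the median gene), at 3829 and 7072 CPM in atrial-type cells and 6369 and 7633 CPM in ventricular cells.

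Of the desmosomal genes, Dsp had 141 and 162 CPM in atrial-type cells, against 245 and 215 CPM in ventricular cells (-1.64, SE 0.43, adjusted p = 0.011, or -1.34 relative to the median gene). Pkp2 had 332 and 487 CPM in atrial-type cells, against 551 and 531 CPM in ventricular cells (-1.37, SE 0.42, adjusted p = 0.024, or -1.07 relative to it). The library 2 values rest on 5 and 15 UMIs, and their intervals span the ventricular values. Both calls were lost in DESeq2 (adjusted p = 0.066 and 0.21), on library totals alone (0.080 and 0.20) and without the library block (0.35 and 0.29). Pkp2 was also lost with DESeq2's size factors (0.080), a stricter cell filter (0.13), smaller classes added (0.054) and the Pecam1 or Cdh5 cells left out (-1.06, adjusted p = 0.13).

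The other members did not pass. Dsg2 had 213 and 162 CPM in atrial-type cells and 255 and 188 CPM in ventricular cells (-0.96, adjusted p = 0.070, or -0.67 relative to the median gene). Dsc2 had 125 and 162 CPM in atrial-type cells and 113 and 90.5 CPM in ventricular cells (-0.43, adjusted p = 0.44, or -0.14 relative to the median gene). The fitted sign of Dsc2 is thus opposite to the order of its CPM, which is higher in atrial-type cells of both libraries, and the fit gave 0.30 (adjusted p = 0.66) with doublets kept and 0.04 (adjusted p = 0.96) with the Pecam1 or Cdh5 cells left out. Jup (-0.28, SE 0.36) and Gjc1 (-0.66, SE 0.38) lay within 2 standard errors of 0, and each rests on 1 UMI in the atrial-type cells of library 2. Relative to the median gene they were at 0.019 and -0.37.

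In the wider lists, 6 of 10 tested conduction system genes were higher in atrial-type cells and none lower (median 2.53). Cacna2d2 (6.56, SE 0.54), Tbx3 (4.63, SE 0.62) and Tbx18 (3.48, SE 1.07) led them, and Tbx3 and Cacna2d2 also stand on the list of conduction markers used to name cells. Of 21 other disc residents, 1 was higher and 7 were lower (median -0.99), the lower ones including Xirp2 (-1.71, SE 0.48) and Ank2 (-1.57, SE 0.33). Of 13 cadherin and catenin partners, 3 were lower (median -0.32), namely Lmo7 (-1.83, SE 0.40), vinculin, Vcl (-1.41, SE 0.23), and Ctnna1 (-0.69, SE 0.23). Of 10 endothelial junction genes, 4 were higher, led by Cdh5 (3.88, SE 0.38), Pecam1 (3.18, SE 0.47) and Esam (2.04, SE 0.62). None of 3 other connexins and pannexins or 6 desmosome-related genes passed in edgeR, and 1 of each list had an unadjusted p under 0.05.

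Markers of other cells were also raised in the atrial-type class. The summed level of 10 fibroblast markers was 3250 and 1006 CPM in atrial-type cells, against 173 and 286 CPM in ventricular cells. That of 8 endocardial markers was 538 and 454 CPM, against 35.6 and 80.8 CPM. That of 10 macrophage markers was 127 and 195 CPM, against 17.3 and 25.1 CPM. Their part in the differences above was not tested, beyond leaving out the cells with a Pecam1 or Cdh5 UMI.

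**Figure D3:**
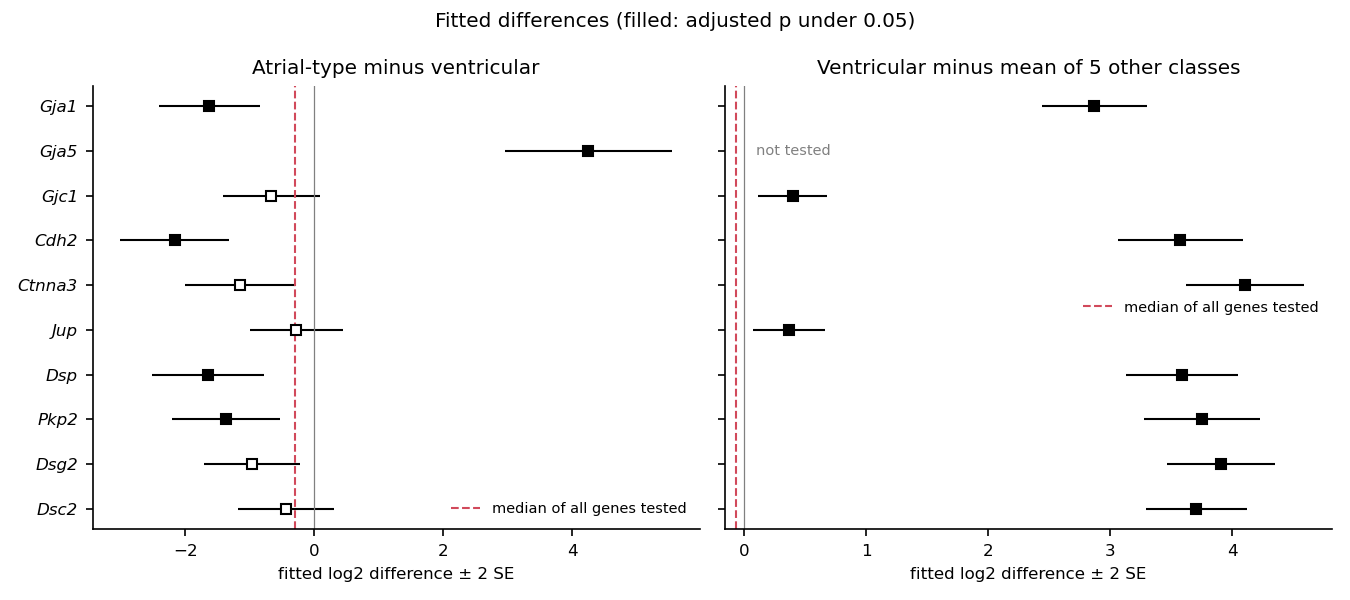
Fitted log2 differences of the members with 2 standard errors on either side. The left panel is atrial-type minus ventricular cells, and the right panel is ventricular cells minus the log2-scale mean of 5 other classes. Filled squares passed an adjusted p of 0.05, the dashed line is the median of all genes tested and the solid line is 0. Gja5 stands alone to the right on the left panel (4.25), and Gjc1 (0.40) and Jup (0.37) lie close to 0 on the right panel.

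The fourth comparison set ventricular cells with at least 1 GFP UMI against as many without one from the same library, matched on total UMIs. GFP UMIs were found in 1213 of 6947 ventricular cells of library 1 (17.5%, 95% Clopper-Pearson interval 16.6 to 18.4) and 513 of 2208 of library 2 (23.2%, 21.5 to 25.1). In fibroblasts, whose median cell had 1832 and 3079 UMIs, the shares were 0.719% and 0.529%. Matching gave median depths of 6342 UMIs with and 6342 without in library 1, and 9738 with and 9735 without in library 2. A cell without a GFP UMI may still make GFP.

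Gja1 was the only member called. It had 382 CPM in cells with a GFP UMI and 422 CPM in cells without one in library 1 (3415 and 3718 UMIs). In library 2 it had 365 CPM with and 505 CPM without (2054 and 2754 UMIs). It was the lower in GFP cells of both libraries, and the 95% Poisson intervals did not overlap in either. The log2 difference was -0.34 (SE 0.07, edgeR adjusted p = 0.0024), a call made for 1.3% of 12578 genes in the lower direction and 0.413% in the higher.

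The size differed between the libraries, at -0.16 in library 1 alone and -0.53 in library 2 alone, and 4 sums leave no degree of freedom to test that difference. Without the library block the value was -0.35 and not called (adjusted p = 1.00). It was likewise not called in DESeq2 (-0.35, adjusted p = 0.999) or with at least 2 GFP UMIs (-0.40, adjusted p = 0.17). It was called under the 9 other alternatives with a test, from -0.30 to -0.36. These included matching within cluster (-0.31, adjusted p = 0.00018) and no matching on depth (-0.34, adjusted p = 0.00047).

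Cdh2 came next, with 2196 CPM in cells with a GFP UMI and 2220 CPM without in library 1, and 1912 CPM with and 2279 CPM without in library 2. It did not pass (-0.17, 2 SE either side -0.30 to -0.05, adjusted p = 0.21). The other 7 tested members lay between -0.13 and -0.03, with intervals that reach no further than -0.28 and 0.15. Gja5 was not tested, with 23 and 6 UMIs in GFP cells and 7 and 4 in cells without a GFP UMI.

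The median log2 difference was -0.07 over the 9 tested members and 1.7e-05 over all genes. In the wider lists, Ctnnal1 (-0.34, SE 0.09), Cdh13 (-0.24, SE 0.06) and Igsf1 (-2.25, SE 0.63) were among the genes that passed, and each was lower in GFP cells. None of 2 other connexins and pannexins, 6 desmosome-related genes or 8 endothelial junction genes passed in edgeR. At an unadjusted p under 0.05 there were 0, 1 and 1. The same threshold held for 9 of 21 other disc residents (median log2 difference -0.09), of which 1 was called. It held for 3 of 12 cadherin and catenin partners, 2 of 10 conduction system genes and 1451 of all 12578 genes.

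The summed markers of cardiomyocytes and endothelial cells were close between the cells compared, while some other marker lists and single genes differed. The sum of 12 cardiomyocyte markers was 66678 CPM with and 63539 CPM without in library 1, and 75691 CPM with and 74601 CPM without in library 2. That of 10 endothelial markers was 2169 with and 2182 without, and 2070 with and 1955 without. The 8 pericyte markers summed to 431 with and 379 without, and to 403 with and 356 without. Lower with a GFP UMI in both libraries were the 8 endocardial markers (29.2 against 37.0, and 68.0 against 80.3). So were the 9 conduction markers (73.1 against 84.0, and 52.4 against 63.2). Rpl10a, a ribosomal protein gene, had the smallest p of all genes (1.08, SE 0.07), at 229 and 227 CPM with and 113 and 95.7 CPM without. Gt(ROSA)26Sor, a transcript of the Rosa26 locus, was also higher (0.79, SE 0.08, edgeR adjusted p = 5.3e-09), at 121 and 165 CPM with and 76.2 and 82.1 CPM without. In all, 52 genes were higher and 164 lower in GFP cells.

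The targeted genes were detected in both kinds of cell. Ep300 had 116 and 127 CPM with a GFP UMI and 109 and 116 CPM without (0.07, adjusted p = 0.78). Crebbp had 395 and 498 CPM with and 374 and 443 CPM without (0.09, adjusted p = 0.67). The 3' tags may lie outside the deleted part, so these levels check nothing about the knockout.

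**Figure D4:**
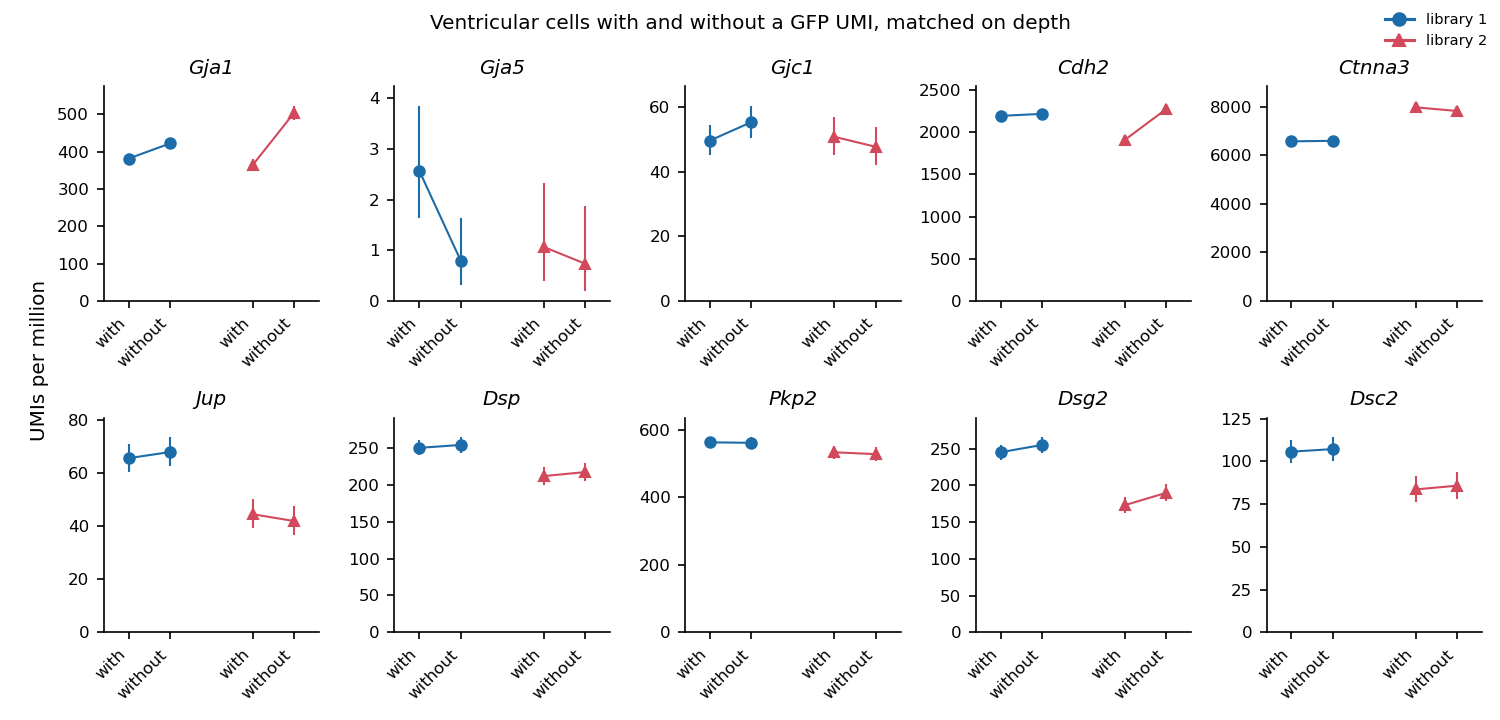
Level of each member (CPM, axes from 0) in ventricular cells with a GFP UMI (left of each pair) and depth-matched cells without one (right), for library 1 (circles) and library 2 (triangles), with 95% Poisson intervals. Gja1 is lower with a GFP UMI in both libraries, at 382 and 365 CPM against 422 and 505 CPM.

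Over the 22 library-by-class sums, the genes whose log2 CPM ran most like that of Gja1 were Rnf122 (Pearson r = 0.862), Tmem117 (0.836) and Me3 (0.826). Those most like Gja5 were Gpr158 (0.895), Plppr5 (0.856) and Kcnh7 (0.855). Those most like Ctnna3 were Dmd (0.977), Jph2 (0.962) and Akap6 (0.956). Among the members, Pkp2 and Dsg2 ran closest together (r = 0.934), while Gjc1 ran against Pkp2 (-0.417). The sums share libraries and depth, so these values are descriptions.

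The classes ordered differently by gene. For Gja1 the order by mean CPM was ventricular (450 ± 39.6, SD, n = 2), atrial-type (279 ± 64.8), epicardial or mesothelial, lymphatic endothelial and endothelial cells, and from atrial-type down to lymphatic endothelial cells neighbours overlapped between libraries. For Gja5 the atrial-type class came first and did not overlap smooth muscle, the next. For Gjc1 smooth muscle and pericytes came first, overlapped each other, and lay above lymphatic endothelial cells without overlap. For Jup lymphatic endothelial cells came first, above endothelial cells without overlap. Dsc2 was first in atrial-type cells (143 ± 26.5) and then in ventricular cells (102 ± 15.7), without overlap between their library values, although the fitted difference above had the opposite sign.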

How the data were processed

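Both samples are 10x 3' droplet libraries of digested right ventricle, enriched with CD45 beads per the labels. The deposited matrix holds raw UMI counts per gene and barcode, and per the file headers Cell Ranger 6.0.0 made it. The tools fastp, Trimmomatic, Seurat and edgeR and the build GRCm38 are named in the submitters' processing notes. Both libraries share this matrix, and the number that ends each barcode was matched to the number that ends the library's title.

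Barcodes with at least 500 UMIs, 200 genes and at most 25% mitochondrial UMIs were kept (22137), doublets were marked by a simulated-neighbour score in each library (1439 and 1016), and these were left out together with the remaining cells of clusters in which at least 40% were marked, 2526 cells in all. The 19611 cells left were clustered with leidenalg 0.10.2 in Python 3.11.15. Clustering left out the 106 genes of the members and wider lists, and besides them GFP and the mitochondrial genes. A cluster was named from marker lists. A ventricular marker list held Kcnj3, an atrial gene, in error, which changed no name.

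Counts were summed by class and library and tested with edgeR 4.0.16 (quasi-likelihood, TMM, low-count filter, library as a block, R 4.3.3), with p-values adjusted by Benjamini-Hochberg over all genes tested. The block pairs classes of 1 cell suspension. Classes needed 50 cells in each library, or 20 for the atrial comparison, so the atrial-type class (70 and 6 cells) fell short and was entered after the data were seen. Its result is reported under that change. The alternatives were other scalings, DESeq2 1.42.0, no filter, no block, each library alone, a stricter cell filter, doublets kept, other clusterings and GFP definitions. Only the main setting of each fit, for its first comparison, was also run on simulated counts with known changes. The members and gene lists were chosen with earlier results of these data known. Named list genes are at most 3 in each direction with the largest change among those called, and a few of them are not reported here. Poisson and Clopper-Pearson 95% intervals cover counting error only.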

Additional observations from a re-analysis of the deposited data

Results flagged for a closer look

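Gja5, the connexin of atrial muscle, conduction tissue and arteries, had a signal in a cluster that entered no comparison. Cluster 19, with 14 cells of library 1 and 53 of library 2, carried Gja5 at 643 CPM (21 UMIs) and 308 CPM (47 UMIs), against 33.2 and 97.3 CPM in atrial-type and 1.61 and 1.49 CPM in ventricular cardiomyocytes. It was left unnamed because 2 marker lists scored within 2-fold of each other, the best being the endothelial list. Pecam1 stood at 3336 and 4444 CPM in it, and the summed cardiomyocyte markers at 12.7% and 5.12% of the ventricular level. It was singled out after its values were seen, and no test was run on it.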

How the results depend on the processing

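Of the members, Gjc1 (-0.075) and Jup (-0.11) turned lower in ventricular cells than in the other classes on library totals alone, which also moved the counts of genes higher and lower to 2648 and 6883. For atrial-type against ventricular cells, genes lower numbered 822 with DESeq2's size factors, 507 on library totals (members lower 1), 814 without the replicate block (members lower 0), and 841 with smaller classes added. DESeq2 called 2074 higher and 801 lower (members lower 2), the stricter cell filter 316 and 412, and leaving out cardiomyocytes with a Pecam1 or Cdh5 UMI, an alternative chosen after the data were seen, 474 and 772. For cells with a GFP UMI, genes higher numbered 84 on library totals, with doublets kept and with 3 matched cells, 80 with the stricter filter and 81 matched within cluster, and no matching on depth gave 173 higher and 299 lower. DESeq2 called 2 and 21, at least 2 GFP UMIs 2 and 13, and the fit without the replicate block 0 and 0, with 98 genes at an unadjusted p under 0.05, and in each of these no member (0) was called. For each other class against the rest, member pairs were 5 higher and 2 lower without the replicate block, 14 and 16 with doublets kept, 13 lower with no filter and 8 lower with smaller classes added. Causes were not tested. Each library alone leaves no residual degree of freedom and gives values only. The low-UMI cluster, added after the data were seen, changed no call of a member. Limits: 6 atrial-type cells in library 2, no control tissue, and 3' counts without length.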

Other observations

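Connexins outside the 10 members marked other classes. Gja4 stood at 145 and 60.9 CPM in pericytes, 109 and 132 CPM in lymphatic endothelial cells and 82.9 and 69.6 CPM in endocardial cells. Gjc3 stood at 127 and 184 CPM in Schwann or glial cells, from 8 and 33 UMIs. Cdh11, a mesenchymal cadherin, stood at 1407 and 2120.1 CPM in endocardial cells.

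Cluster 13, with 230 cells of library 1 and none of library 2, was led by hepatocyte genes and was left unnamed for its low depth. The liver connexins Gjb1 and Gjb2 stood at 229 and 78.5 CPM in it, from 70 and 24 UMIs. Cluster 7, with 946 and 9 cells and a median of 558 UMIs, held cardiomyocyte transcripts at 71.6% and 68.0% of the ventricular level, and its Gja1 was at 624 CPM in library 1.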
